A study of Mus musculus with 7 samples.

Results

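The 8 genes described here belong to the noradrenergic system and were followed in islet RNA from pregnant mice. They were 6 genes of sympathetic neurons, TH, DBH, PHOX2A, HAND2, SLC6A2 and GATA3, and 2 adrenergic receptor genes, ADRA2A and ADRB1. They were taken by name, ignoring case, from a table of 34082 gene names, and all 8 were found. Hand-picked islets of 7 C57BL/6 mice on day 15 of pregnancy were sequenced after overnight culture, 1 library per mouse, with no batch named. The 4 βPrlR+/- mice carried a floxed prolactin receptor allele and the tamoxifen-activated Cre of the Pdx1CreER transgene, which deletes it in β-cells, and received tamoxifen. The 3 Prlr+/- mice lacked 1 allele of the prolactin receptor in every tissue, carried no Cre and received no tamoxifen. Genotype, Cre, tamoxifen and mouse line therefore cannot be told apart between the groups, since the null and floxed alleles came from separate lines. The methods do not state the background of the Pdx1CreER line. Islets of wild-type mice were not analysed here. Sources differ on the β-cell deletion, which is homozygous in the labels and heterozygous in the methods, and the sample name CkoWt is left unexplained. They differ on age as well, with 3 to 4 months in the labels and 4 to 5 months in the methods.

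Noradrenaline is made in sympathetic nerve endings from tyrosine. Tyrosine hydroxylase (TH) makes L-DOPA, a decarboxylase turns it into dopamine, a vesicular transporter loads dopamine into vesicles, and dopamine β-hydroxylase (DBH) converts it to noradrenaline inside them. The transporter encoded by SLC6A2 takes released noradrenaline back up. PHOX2A, HAND2 and GATA3 are transcription factors that specify and maintain this type of neuron, but PHOX2A and HAND2 are also known from other autonomic neurons. Sympathetic fibres reach the pancreatic islet, where noradrenaline lowers insulin secretion through the α2A receptor (ADRA2A), which couples to inhibitory G proteins, whereas β receptors couple to the stimulatory G protein. The cell bodies of sympathetic neurons lie outside the pancreas, whereas parasympathetic ganglia lie within it, next to islets. TH is also known from β-cells.

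The levels of the 8 genes ran from near 0 to about that of TH and ADRA2A, and the markers that define a noradrenergic neuron were near 0. Levels are in scaled TPM, that is, deposited TPM (transcript abundance per fixed total) divided by a size factor for each mouse, a unit that already corrects for transcript length. The mean over 7 mice was 32.2 ± 5.66 (SD) for ADRA2A and 29.3 ± 3.89 for TH. These 2 did not differ beyond their spread, ADRA2A being the higher in 5 of 7 mice. HAND2 followed at 1.44 ± 0.437 and PHOX2A at 0.940 ± 0.342, with HAND2 the higher in 7 of 7 mice although their ranges overlapped. ADRB1 came next at 0.260 ± 0.0569. DBH at 0.0777 ± 0.0849 and GATA3 at 0.0662 ± 0.0199 could not be ordered, DBH being the higher in 3 of 7 mice. SLC6A2 had the lowest mean, at 0.0316 ± 0.0161, and lay below GATA3 in 7 of 7 mice with overlapping ranges. It lay above DBH in βPrlR+/- mouse 1 and Prlr+/- mouse 3 and below DBH in the other mice. The name "noradrenergic neuron genes" thus described where these genes are known from, but the enzyme and the transporter particular to that neuron were almost absent from the islet RNA. TPM does not keep the reads behind a gene, so the counting error of the low values is unknown. The targeted gene itself, PRLR, read 45.1 ± 8.19 in βPrlR+/- islets (n = 4) and 40.8 ± 8.97 in Prlr+/- islets (n = 3; two-sided exact permutation p = 0.571), with overlapping groups. The methods describe a floxed exon and not the whole gene, and the gene value sums whole transcripts. How much RNA of a deleted allele it still counts was not tested, so these values do not measure the loss of receptor.

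**Figure D1:**
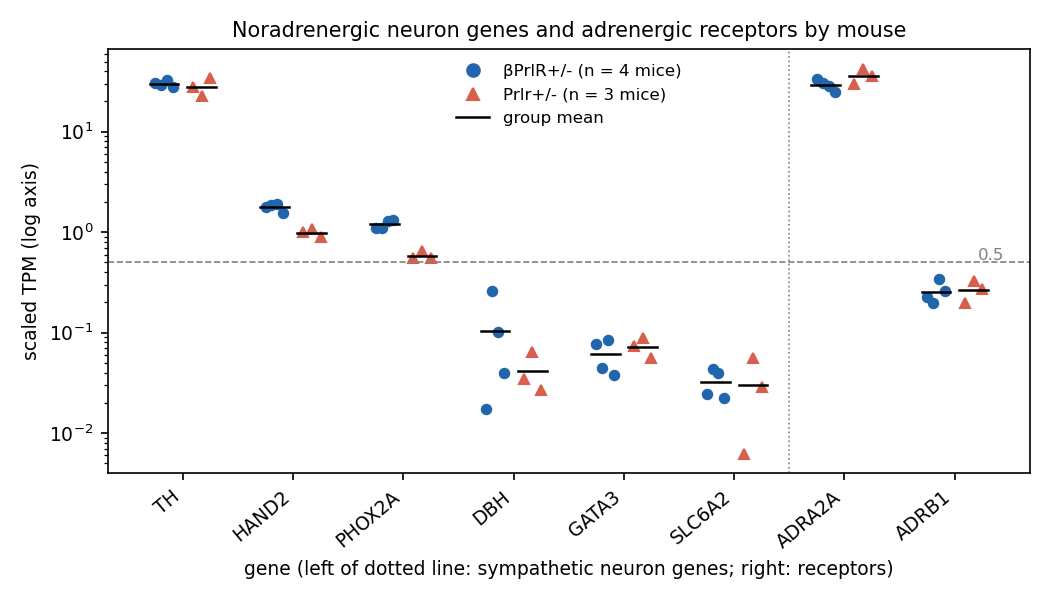
Scaled TPM of the 8 genes in each mouse on a log axis, with circles for the 4 βPrlR+/- mice, triangles for the 3 Prlr+/- mice and black bars for group means. The dashed line marks the mean TPM of 0.5 needed for testing, under which DBH, GATA3, SLC6A2 and ADRB1 lie; the groups of HAND2 and PHOX2A do not overlap.

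The promoters of 4 of the 6 neuron genes are shown, because TH was read at a level far above DBH, its partner in the same pathway, and because HAND2 and PHOX2A had groups that did not overlap, although neither passed the threshold (limma adjusted p = 0.247 each). The sequences are the 250 bases before the RefSeq start of each gene in GRCm38.p6, 5′ to 3′ on the gene's strand, for which 7 of the 8 genes matched (SLC6A2 did not). The GATA3 window, at a GC content of 70.0%, held none of the motifs below and is not printed. The study's quantification used transcripts and names no build. Capitals mark 3 motifs, each searched on both strands: ATTA (TAAT on the other strand), the core bound by homeodomain factors such as PHOX2A; CANNTG, the E-box bound by basic helix-loop-helix factors such as HAND2; and TGACGTCA, the cAMP response element.
TH, chr7:142899996-142900245, minus strand: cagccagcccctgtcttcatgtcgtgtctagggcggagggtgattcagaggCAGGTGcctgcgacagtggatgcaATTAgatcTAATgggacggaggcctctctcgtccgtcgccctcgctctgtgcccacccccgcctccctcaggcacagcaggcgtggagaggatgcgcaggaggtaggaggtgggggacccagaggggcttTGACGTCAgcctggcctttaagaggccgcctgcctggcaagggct
DBH, chr2:27165257-27165506, plus strand: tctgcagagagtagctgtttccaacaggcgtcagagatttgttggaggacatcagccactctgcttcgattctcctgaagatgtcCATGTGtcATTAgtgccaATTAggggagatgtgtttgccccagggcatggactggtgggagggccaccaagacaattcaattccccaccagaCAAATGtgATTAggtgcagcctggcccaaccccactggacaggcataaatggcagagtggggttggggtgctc
PHOX2A, chr7:101818063-101818312, plus strand: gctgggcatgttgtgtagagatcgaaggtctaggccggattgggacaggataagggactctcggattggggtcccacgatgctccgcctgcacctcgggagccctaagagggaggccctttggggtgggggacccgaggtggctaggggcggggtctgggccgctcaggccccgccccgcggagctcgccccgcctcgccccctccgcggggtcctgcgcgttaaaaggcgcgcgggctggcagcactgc
HAND2, chr8:57320733-57320982, plus strand: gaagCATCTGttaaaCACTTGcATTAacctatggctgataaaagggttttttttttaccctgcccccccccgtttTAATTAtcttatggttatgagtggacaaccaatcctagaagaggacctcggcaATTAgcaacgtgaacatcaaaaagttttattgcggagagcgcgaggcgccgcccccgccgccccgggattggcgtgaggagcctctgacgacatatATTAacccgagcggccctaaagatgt

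The 4 windows differed in these letters. The TH promoter held 1 cAMP response element, whose first base lay 45 bases before the start, as did 1.55% of 32851 RefSeq promoter windows of the same length. It also held 2 homeodomain cores and 1 E-box. The DBH promoter held 3 homeodomain cores and 2 E-boxes, and a core and an E-box lay side by side at 2 places. The HAND2 promoter held 5 homeodomain cores, of which 2 overlap in the run TAATTA, and 2 E-boxes. The PHOX2A promoter, with a GC content of 70.4% against 49.2% in HAND2, held none of the 3 motifs in this window. The short motifs are common, since 54.9% of all windows held a homeodomain core and 66.2% an E-box. A match here is a description of letters and not a binding site.

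HAND2 and PHOX2A read lower in each of the 3 Prlr+/- mice than in any of the 4 βPrlR+/- mice, although neither difference passed the threshold across all genes. HAND2 read 1.79, 1.87, 1.90 and 1.55 scaled TPM in βPrlR+/- mice, against 1.0, 1.07 and 0.90 in Prlr+/- mice. The lowest βPrlR+/- mouse therefore lay above the highest Prlr+/- mouse. The group means were 1.78 ± 0.158 (SD, n = 4) and 0.992 ± 0.0871 (n = 3), a ratio of 0.559. On the log2(scaled TPM + 1) scale, which understates the change of genes at such levels, the fold change was -0.48 ± 0.08 (SE), with a 95% interval of -0.67 to -0.29 and an adjusted p of 0.247 (limma, Benjamini-Hochberg over 14840 genes).

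PHOX2A, the homeodomain factor of the pair, showed the same order of groups. Its level was 1.10, 1.11, 1.29 and 1.32 scaled TPM in βPrlR+/- mice, against 0.556, 0.648 and 0.555 in Prlr+/- mice. These groups did not overlap either. The means were 1.21 ± 0.115 (SD, n = 4) and 0.587 ± 0.0533 (n = 3), a ratio of 0.487, and the log2 fold change was -0.47 ± 0.08 (SE, 95% interval -0.66 to -0.28, limma adjusted p = 0.247). For both genes the two-sided exact permutation test over 35 splits gave p = 0.0286, the smallest it can give. PHOX2A and HAND2 both stand in a list of differing genes that the study drew from these same mice, so their direction is not independent evidence.

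The number of calls across the table sets the scale for these values. Of 14840 genes tested, 10 (0.0674%) had a limma adjusted p under 0.05, of which 9 (0.0606%) were lower in Prlr+/- islets. That split depended on single mice, with 2 lower and 3 higher without Prlr+/- mouse 1 and 2 lower and 5 higher without Prlr+/- mouse 3. None of the 4 tested genes of the noradrenergic system was among them. Without adjustment, HAND2 and PHOX2A were under 0.05, that is 2 of these 4 beside 4.52% of all genes tested (2.94% for the lower direction). Groups that did not overlap were found for the same 2, beside 3.11% of all genes tested for the lower direction. Since islets were sequenced in bulk, the cells behind the HAND2 and PHOX2A values were not tested. Fewer such cells and less RNA per cell cannot be told apart.

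TH did not follow HAND2 and PHOX2A. It read 30.6, 29.4, 33.0 and 27.7 scaled TPM in βPrlR+/- mice, against 27.6, 22.5 and 34.1 in Prlr+/- mice. Both the lowest and the highest of the 7 mice were Prlr+/- mice. The means were 30.2 ± 2.23 (SD, n = 4) and 28.1 ± 5.84 (n = 3), with a log2 fold change of -0.12 ± 0.13 (SE), a 95% interval of -0.43 to 0.19 and a limma adjusted p of 1.0 (two-sided exact permutation p = 0.486). The direction rested on Prlr+/- mouse 2, without which the log2 fold change was 0.03. By mean level TH ranked 2329 among all gene names.

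The ratio of TH to HAND2, computed after the levels had been seen, did not overlap between the groups. HAND2 alone already separated the groups and TH did not, so the ratio is no further evidence beyond the HAND2 values. TH was 17.1, 15.7, 17.4 and 17.9 times HAND2 in the βPrlR+/- mice, and 27.5, 20.9 and 37.9 times in the Prlr+/- mice. HAND2 was 1.18 to 1.80 times PHOX2A over the 7 mice, with overlapping groups. Across the 7 mice HAND2 and PHOX2A had a Pearson r of 0.93 (Spearman rho 0.79), whereas TH had an r of 0.26 with HAND2 and 0.24 with PHOX2A. These correlations are descriptions over 7 libraries that include both groups, so a difference between the groups adds to them.

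DBH, the enzyme that turns dopamine into noradrenaline, was listed above 0 in each of the 7 mice but lay under the level needed for testing. It read 0.0173, 0.259, 0.102 and 0.0395 scaled TPM in βPrlR+/- mice, against 0.0350, 0.0639 and 0.0269 in Prlr+/- mice. The lowest and the highest of these both belonged to βPrlR+/- mice, and the groups overlapped. TH exceeded DBH by 113 to 1765 times, the smallest ratio being that of βPrlR+/- mouse 2. Each of the 2 genes was quantified on 1 RefSeq transcript.

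SLC6A2, the noradrenaline reuptake transporter, was near 0 as well, with a range that overlapped that of DBH. Its values were 0.0247, 0.0434, 0.0400 and 0.0225 scaled TPM in βPrlR+/- mice, against 0.00626, 0.0554 and 0.0288 in Prlr+/- mice. The 3 Prlr+/- mice took in both ends of the range. Of its 3 listed transcripts, 1 was above 0.

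GATA3 is a zinc-finger factor of sympathetic neurons that T cells and innate lymphoid cells use as well. It read 0.0777, 0.0447, 0.0844 and 0.0382 scaled TPM in βPrlR+/- mice, against 0.0741, 0.0882 and 0.0558 in Prlr+/- mice, so the groups overlapped. All of its signal fell on 1 of 3 listed transcripts, a predicted one that matched none of the accessions in the RefSeq gene table used here. Of 8 markers of T and innate lymphoid cells, only RORA, a nuclear receptor that other cells express too, reached the level for testing, at 9.28 to 10.9 scaled TPM. CD3E, a subunit of the T-cell receptor complex, was listed at 0 in 3 mice and at 0.0135 to 0.0751 in the others. CD3D, another subunit, was above 0 in all 7 mice at 0.151 to 0.250, and so were IL7R (0.0490 to 0.148) and IL1RL1 (0.0273 to 0.0880), receptors of lymphoid cells. The summed level of the 8 was 9.71 to 11.4 in βPrlR+/- and 9.74 to 10.9 in Prlr+/- islets, most of it from RORA. The part of lymphoid cells in the GATA3 values was not tested. DBH, SLC6A2, GATA3 and ADRB1 were not called when all genes above 0 were tested, each with a limma adjusted p of 0.999.

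The islet α2A receptor gene, ADRA2A, lay at about the level of TH, which was the higher of the 2 in βPrlR+/- mice 3 and 4. It read 33.4, 30.6, 28.3 and 25.1 scaled TPM in βPrlR+/- mice, against 30.2, 42.6 and 35.5 in Prlr+/- mice. The 2 highest values belonged to Prlr+/- mice, but the groups overlapped. The means were 29.4 ± 3.53 (SD, n = 4) and 36.1 ± 6.22 (n = 3), with a log2 fold change of 0.28 ± 0.13 (SE), a 95% interval of -0.03 to 0.60, a limma adjusted p of 1.0 and a two-sided exact permutation p of 0.143. Without Prlr+/- mouse 2, in which it was highest, the log2 fold change was 0.16, and on TPM as deposited it was 0.14. The 8 tested markers of β-cells were all on the higher side in Prlr+/- islets, beside 7673 of 14840 genes tested. Their median log2 fold change was 0.34, and none was called. On TPM as deposited 7 of 8 were higher, with a median of 0.20. The part of β-cell content in the ADRA2A values was not tested.

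ADRB1, the β1 receptor gene, was at a small part of the ADRA2A level. Its values were 0.228, 0.199, 0.343 and 0.258 scaled TPM in βPrlR+/- mice, against 0.199, 0.324 and 0.270 in Prlr+/- mice. The groups lay over each other, with means of 0.257 and 0.264. ADRA2A exceeded ADRB1 by 82.5 to 154 times in the 7 mice.

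Beside these, 6 other adrenergic receptor genes are described, and none of the 6 reached the level for testing. The α1 receptor genes ADRA1A (0.0512 to 0.150 scaled TPM) and ADRA1D (0.0580 to 0.0938) were close to the level of GATA3. ADRA2B, an α2 receptor gene like ADRA2A, read 0.0780, 0.0291, 0.0478 and 0.0615 in βPrlR+/- mice, against 0.0655, 0.0664 and 0.0806 in Prlr+/- mice. Those groups overlapped, and ADRA2A was far above ADRA2B in each of the 7 mice. ADRA2C, the remaining α2 receptor gene, read 0.0480, 0.0561, 0.0353 and 0.0219 in βPrlR+/- mice, against 0.0243 and 0.0126 in 2 Prlr+/- mice, and was listed at 0 in the other, again with overlapping groups. ADRB3, the β3 receptor gene of fat cells, was listed at 0 in 5 mice, and ADRA1B was listed at 0 in 6.

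**Figure D2:**
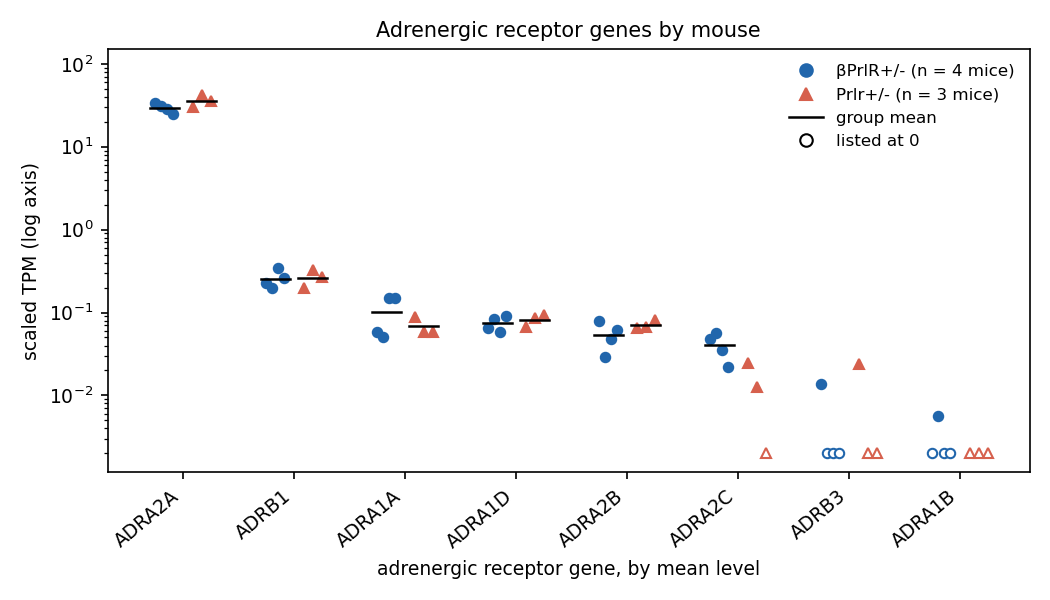
Scaled TPM of 8 adrenergic receptor genes in each mouse on a log axis, with circles for the 4 βPrlR+/- mice, triangles for the 3 Prlr+/- mice, open symbols at the foot for genes listed at 0, and black bars for group means where no mouse of the group was at 0. ADRA2A lies between 25.1 and 42.6, above the other receptor genes drawn, in each of the 7 mice.

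The decarboxylase that acts after TH and several genes of cofactor supply and breakdown were well represented in islet RNA, unlike DBH. Of 13 genes of catecholamine synthesis, storage and breakdown, 11 reached the level for testing, with 4 lower (beside 48.3% of all genes tested) and 7 higher in Prlr+/- islets, a median log2 fold change of 0.15 beside 0.0042 for all genes tested, and none called. That median was 0.01 on TPM as deposited and 0.08 without Prlr+/- mouse 1 or 3. DDC, the decarboxylase that turns L-DOPA into dopamine, read 156 to 232 scaled TPM (log2 fold change 0.26 ± 0.15 SE, limma adjusted p = 1.0; 0.11 on TPM as deposited). QDPR, which regenerates the cofactor of TH, read 82.3 to 107, and MAOB, a monoamine oxidase, read 73.5 to 110. Without adjustment 1 of the 11 was under 0.05, beside 4.52% of all genes tested. It was GCH1, the first enzyme of cofactor synthesis, at 51.3 ± 6.13 (SD, n = 4) and 61.2 ± 5.16 (n = 3; limma adjusted p = 1.0). Of the 2 vesicular monoamine transporters, SLC18A1, known from endocrine cells, read 6.63 to 9.42. SLC18A2, the transporter of neurons that β-cells also express, read 1.02, 1.02, 0.993 and 1.16 in βPrlR+/- mice, against 0.956, 0.815 and 0.568 in Prlr+/- mice. Those groups did not overlap (limma adjusted p = 1.0), which on the lower side was so for 1 of the 11, beside 3.11% of all genes tested. GCH1 and the 2 transporters were named after their values had been seen. PNMT, which converts noradrenaline to adrenaline, was listed at 0 in 6 mice.

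Other regulators of the sympathetic lineage gave no shared direction. Of 9 such genes 3 were tested, and HAND1 and HMX1 were listed at 0 in all 7 mice. GATA2, a relative of GATA3, read 1.29 ± 0.0888 (n = 4) and 0.952 ± 0.318 (n = 3) with overlapping groups (log2 fold change -0.24 ± 0.12 SE, limma adjusted p = 1.0; -0.15 without Prlr+/- mouse 1 and -0.37 without Prlr+/- mouse 3). ISL1 and INSM1, which islet endocrine cells also use, read 44.8 to 78.3 and 57.5 to 72.4. Their log2 fold changes of 0.03 and 0.08 turned to -0.11 and -0.06 on TPM as deposited, a scaling that moved the median of all genes to -0.12.

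Genes of the neuron surface, cytoskeleton and peptides lay with HAND2 and PHOX2A. All 11 were tested, 9 were lower (beside 48.3% of all genes tested) and 2 higher in Prlr+/- islets (11 lower on TPM as deposited), and the median log2 fold change was -0.42. Of these, 2 passed the threshold, beside 0.0674% of all genes tested. STMN2, a microtubule regulator of growing axons, fell from 7.99 ± 0.522 (SD, n = 4) to 4.12 ± 0.189 (n = 3; limma adjusted p = 0.0173), and PRPH, the intermediate filament of peripheral neurons, fell from 5.47 ± 0.170 to 2.84 ± 0.263 (limma adjusted p = 0.0242). The log2 fold changes were -0.81 ± 0.07 (SE) for STMN2 and -0.76 ± 0.07 for PRPH, and stayed at -0.85 to -0.78 and -0.80 to -0.70 with each mouse left out in turn. The calls did not stay, with limma adjusted p of 0.0359 to 0.0877 for STMN2, called without βPrlR+/- mouse 1 or 3, and 0.0423 to 0.119 for PRPH, called without Prlr+/- mouse 2. Groups that did not overlap were found for 6 of the 11, beside 3.11% of all genes tested. The other 4 were CHRNA3 and CHRNB4, subunits of the nicotinic receptor of autonomic ganglia, DPYSL3, an axon growth protein, and NPY, a peptide of sympathetic neurons. CHRNA3 read 1.36 ± 0.0881 (n = 4) and 0.660 ± 0.101 (n = 3; limma adjusted p = 0.188). NPY was 22.5 to 26.8 in the Prlr+/- mice and 32.8 to 62.4 in the βPrlR+/- mice (limma adjusted p = 1.0). Its mean over the 7 mice, 33.6, was above those of STMN2 (6.33) and PRPH (4.35). The cells behind the NPY values were not tested. RET, the GDNF family receptor, read 28.4 ± 0.519 (n = 4) and 29.2 ± 4.08 (n = 3). STMN2, PRPH, CHRNA3 and DPYSL3 are in the study's own list too.

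Markers of cholinergic neurons lay on the same side as HAND2 and PHOX2A, and their part in that result was not tested. All 5 tested markers of 6 were on the lower side in Prlr+/- islets, beside 48.3% of all genes tested, with a median log2 fold change of -0.65. None was called, 4 had groups that did not overlap (beside 3.11% of all genes tested), and the summed level was 50.7 to 164 in βPrlR+/- and 46.5 to 70.8 in Prlr+/- islets, most of it from the peptide VIP. SLC18A3, the vesicular acetylcholine transporter, read 1.56, 2.42, 2.08 and 2.09 scaled TPM in βPrlR+/- mice, against 0.799, 1.03 and 0.972 in Prlr+/- mice (limma adjusted p = 0.247). SLC5A7, the choline transporter, read 2.27 ± 0.493 (n = 4) and 1.03 ± 0.0338 (n = 3; limma adjusted p = 0.348). SLC18A3, SLC5A7 and NOS1, the neuronal nitric oxide synthase, are also in the study's list. NOS1 (means 1.04 and 0.445) and the marker CHRNA7 (0.917 and 0.462) reached the level for testing only through the βPrlR+/- mice. That filter favoured their lower side, so their place among the 5 lower and the 4 separate markers carries no weight. CHAT, the acetylcholine-making enzyme, lay under the level for testing at 0.202 to 0.282 and 0.0777 to 0.129. Its groups did not overlap, but the counting error at such levels is unknown. The share given for genes tested does not cover it. The ratio of HAND2 to SLC18A3 was 0.740 to 1.26 and that of PHOX2A to SLC18A3 was 0.461 to 0.703 over the 7 mice, with overlapping groups in both.

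**Figure D3:**
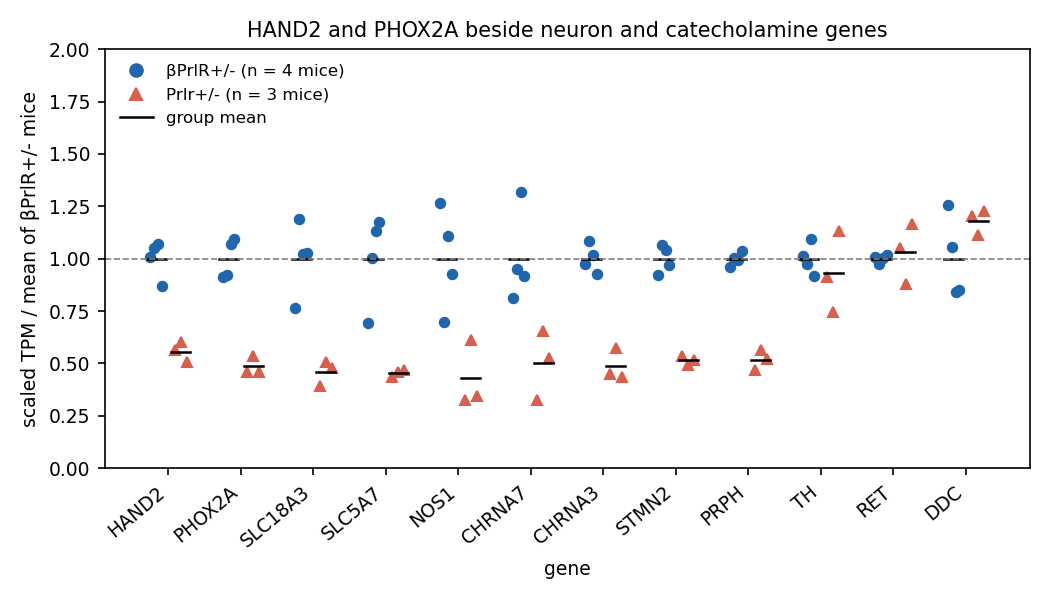
Scaled TPM of HAND2 and PHOX2A in each mouse beside cholinergic neuron genes (SLC18A3, SLC5A7, NOS1, CHRNA7), neuron surface and cytoskeleton genes (CHRNA3, STMN2, PRPH, RET) and catecholamine enzymes (TH, DDC), each divided by its mean in the 4 βPrlR+/- mice. Circles are βPrlR+/- mice, triangles are the 3 Prlr+/- mice and black bars are group means; the Prlr+/- means are at 0.559 for HAND2 and 0.487 for PHOX2A, while the groups of TH, RET and DDC overlap.

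The lists of other cell types were read in the same way. The median log2 fold change was -0.30 for 6 markers of Schwann and satellite glia (5 lower), -0.24 for 5 endothelial markers (5 lower), -0.22 for 6 markers of α-, δ- and PP-cells (6 lower) and -0.18 for 5 markers of pericytes and smooth muscle (5 lower). It was 0.06 for 3 macrophage markers and 0.08 for 6 markers of acinar and duct cells, which turned to -0.03 and -0.06 on TPM as deposited. The endothelial median was -0.37 and the α-, δ- and PP-cell median -0.35 on that scale. None of these genes was called by limma. The counts of lower markers stand beside 48.3% of all genes tested. Without adjustment 1 of the 6 glial and 3 of the 5 endothelial markers were under 0.05, in the lower direction, beside 2.94% of all genes tested. The glial one was S100B. With FABP7 and CDH19, S100B reached the level for testing only through the βPrlR+/- mice. Prlr+/- means were 0.372 scaled TPM for S100B, 0.473 for FABP7 and 0.354 for CDH19, under the 0.5 needed. The filter thus favoured the lower side for these 3 markers, so their counts there carry no weight. The part of the listed cell types in the HAND2 and PHOX2A differences was not tested.

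Downstream of the receptors, the signal transduction genes had no shared direction. Of 19 genes, 2 of them also listed under older symbols, 18 were tested, 9 lower and 9 higher in Prlr+/- islets (15 and 3 on TPM as deposited), and none was called. Groups that did not overlap were found for 3 on the lower side (KCNJ3, GNAL and ARRB1), beside 3.11% of all genes tested. On the higher side they were found for 2 (GNAI3 and GRK2), beside 1.84%. GNAL (means 0.605 and 0.466) reached the level for testing only through the βPrlR+/- mice, so its place on the lower side carries no weight. GNAI2, an inhibitory G protein subunit of the kind that ADRA2A couples to, read 297 ± 59.5 (SD, n = 4) and 364 ± 16.0 (n = 3; log2 fold change 0.31 ± 0.15 SE, limma adjusted p = 1.0; 0.16 on TPM as deposited). GNAS, the stimulatory subunit that β receptors couple to, read 844 ± 66.9 and 807 ± 42.5. RGS2, a regulator of G protein signalling, varied from 32.4 to 202 among the βPrlR+/- mice alone. Without adjustment 1 of the 18 was under 0.05, beside 4.52% of all genes tested. It was KCNJ3, a potassium channel subunit opened by G proteins, at 1.35 ± 0.224 and 0.863 ± 0.159 (limma adjusted p = 0.924).

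**Figure D4:**
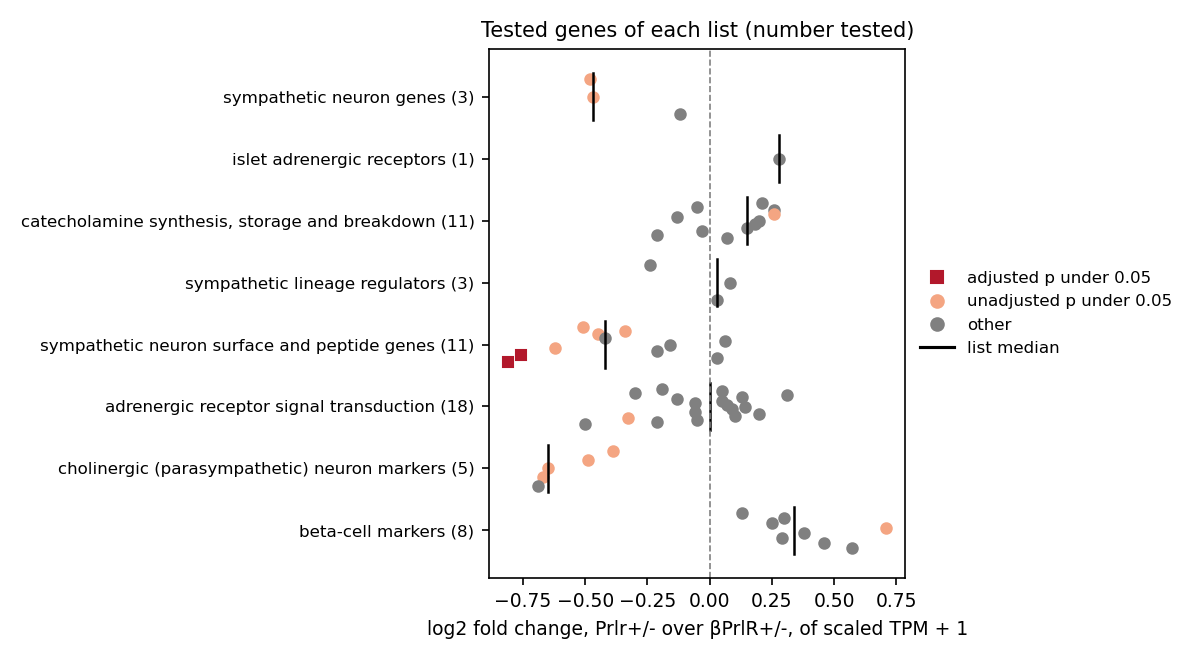
Log2 fold change of scaled TPM + 1, Prlr+/- over βPrlR+/- mice, of each tested gene by list, with the number tested in brackets and the list median as a black bar. Red squares passed an adjusted p of 0.05 (STMN2 and PRPH), orange circles had an unadjusted p under 0.05, and grey circles did not; HAND2 and PHOX2A lie to the left of TH, and ADRA2A lies to the right of 0.

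The genes whose pattern over the 7 mice was most like that of each tested gene were found by Pearson's r on log2(scaled TPM + 1). For HAND2 they were CHRNA3 (r = 0.987), HTR3A (0.980), a serotonin-gated ion channel, and EEF1A2 (0.974), an elongation factor of neurons and muscle. For PHOX2A they were DPH5 (0.987), an enzyme of diphthamide synthesis, PRPH (0.983) and DLG2 (0.981), a synaptic scaffold protein. For TH they were RSPO4 (0.988), a secreted activator of Wnt signalling, LOC108168299 (0.962) and RPL27 (0.959), a ribosomal protein. For ADRA2A they were HMG20B (0.980), SLC35D3 (0.971) and FBXL2 (0.970). An r over 0.9 was reached with HAND2 by 0.505% of all genes tested and with PHOX2A by 0.667%. The share was 0.290% with TH and 0.377% with ADRA2A. Over only 7 libraries such values carry little weight. The libraries include both groups, so genes lower in Prlr+/- islets can rank high beside HAND2 and PHOX2A for that reason. CHRNA3 (log2 fold change -0.51), HTR3A (-0.62), EEF1A2 (-0.49), DPH5 (-0.13), PRPH (-0.76) and DLG2 (-0.31) were all lower. Apart from DPH5, these are also in the study's list.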

How the data were processed

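Islet RNA from 7 mice, 1 library per mouse, was described. The authors made strand-specific poly(A) libraries and assigned reads to mouse RefSeq transcripts with Kallisto (version 0.42.4 in the submitters' processing notes). Their methods call the deposited values FPKM, but each mouse sums to 1000000, so they were handled as TPM. The methods give the reads per sample, but TPM does not keep the reads behind a gene, and the genome build is not given in the sources used here. TPM was divided by median-ratio size factors (0.882 to 1.11), since the insulin genes took 46.1% to 58.9% of it. The test took in genes whose mean TPM reached 0.5 (14840 of 34082) and ran on log2(scaled TPM + 1) in limma 3.58.1 (R 4.3.3, mean-dependent variance, Benjamini-Hochberg, threshold 0.05), Prlr+/- minus βPrlR+/-. The test was checked on simulated data. Single genes had a two-sided exact permutation test over 35 splits. Lists are given by counts and medians. The members and lists were chosen with earlier results of these data known. Genes were named if past the threshold, if at an unadjusted p under 0.05 with separate groups, if among the 3 highest of a pathway list, or if among the 3 most like a tested member. Cell type markers were named for their levels. Outside these rules, GNAL, ARRB1, GNAI3 and GRK2 were named for their separate groups. ADRA2C, ADRB3, ADRA1B, PNMT, HAND1 and HMX1 were named for their levels, also outside these rules. Replicate numbers follow accession order. Mice are separate animals, so p-values measure the spread between mice. The alternatives were TPM as deposited, upper-quartile scaling, rescaling without the insulin genes, a pseudocount of 0.1, all genes above 0, a robust fit and leaving out each mouse. Python 3.11.15, pandas 2.3.3 and matplotlib 3.10.9 were used. Some genes of the lists are not reported here.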

Additional observations from a re-analysis of the deposited data

Results flagged for a closer look

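Single mice standing apart were looked for with Dixon's gap test, in the βPrlR+/- group of 4, over 28 genes (the 8 and the named genes of the pathway lists), and 2 of 28 were found, where chance gives about 1 in 20. NPY read 62.4 scaled TPM in βPrlR+/- mouse 2, the highest of its group, with 32.8 to 32.9 left for 3 others. Without that mouse the log2 fold change of NPY went from -0.62 to -0.39. INSM1 read 72.4 in βPrlR+/- mouse 1, the highest of its group, and without that mouse its log2 fold change went from 0.08 to 0.16. None of the 8 genes of the noradrenergic system was found in this way. The test was not run in the Prlr+/- group of 3.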

How the results depend on the processing

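HAND2 and PHOX2A stayed lower in Prlr+/- islets, and uncalled, under the 6 other settings and with each mouse left out, with limma adjusted p of 0.204 to 0.713 for HAND2 and 0.197 to 0.767 for PHOX2A. ADRA2A stayed higher and uncalled, at 0.14 to 0.40. The log2 fold change at a pseudocount of 0.1 was -0.78 for HAND2 and -0.93 for PHOX2A. TH ranged from -0.27 to 0.03 over the left-out mice, turning positive without Prlr+/- mouse 2. ISL1 (-0.18 to 0.22), RGS2 (-0.74 to 0.12) and RET (-0.06 to 0.14) also changed sign there. With no size factors the median of all genes moved to -0.12, and INSM1 was -0.06, ISL1 -0.11 and RET -0.11, and list medians were 0.01 for catecholamine synthesis, -0.11 for lineage regulators, -0.51 for surface and peptide genes and -0.12 for signal transduction. The surface and peptide median was -0.64 at a pseudocount of 0.1 and -0.48 to -0.31 over the left-out mice, and that of the lineage regulators -0.18 to 0.06. The number of genes past the threshold was 10, with 5 after rescaling without the insulin genes, 18 at a pseudocount of 0.1, 4 with all genes above 0 (fewer than at the filter, with 27935 genes tested), and 2 without βPrlR+/- mouse 4 to 13 without βPrlR+/- mouse 3. STMN2 and PRPH lost their calls after rescaling without the insulin genes (adjusted p = 0.0741 each, limma) and with all genes above 0 (0.0520 and 0.0735), while their log2 fold changes were -0.80 and -0.74 in the former and -0.81 and -0.76 in the latter. The cause was not tested. No paired analysis was possible because the labels give no replicate numbers shared by the groups. The reads behind the low values of DBH, SLC6A2, GATA3 and ADRB1 are not known from TPM, so no counting interval limits their differences.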
